A study of Homo sapiens with 31 samples.

Results

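The genes described here encode 31 subunits of the proteasome, the protease that degrades ubiquitin-tagged proteins. They were chosen by gene symbol, by a rule that uses no measured value, although earlier results of these data were known when the set was proposed. Each of the 31 symbols matched 1 of the 30667 Ensembl gene identifiers of the count table. Of these genes, 7 (PSMA1 to PSMA7) form the alpha rings and 7 (PSMB1 to PSMB7) the beta rings of the core, 6 (PSMC1 to PSMC6) the ATPase ring of the cap, and 11 (PSMD1 to PSMD4, PSMD6 to PSMD8 and PSMD11 to PSMD14) the non-ATPase subunits of the cap. All 31 had enough counts to be tested in every comparison, so no member was lost to the filter on low counts.

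The samples were cultures of NALM-6, an established human line of B-cell precursor acute lymphoblastic leukaemia (preB-ALL), transduced with lentiviral constructs that carried either a control shRNA (sh-CTRL) or an shRNA against XIAP (sh-XIAP). Each shRNA was driven by the EF1α or by the SFFV promoter, which gave 4 constructs: EF1α/sh-CTRL, EF1α/sh-XIAP (the moderate knockdown, KD), SFFV/sh-CTRL and SFFV/sh-XIAP (the strong KD). RNA was sequenced at days 4, 10 and 13 after transduction by prime-seq, a bulk 3′ method that counts each captured RNA molecule once through its unique molecular identifier (UMI). There were 10 samples at day 4 (3, 2, 3 and 2 in the order of constructs above) and 21 at days 10 and 13 together (6, 5, 4 and 6). The paper left 5 samples out of its expression analysis as outliers by PCA (principal component analysis). Some groups here lack a replicate number that others have, and the labels do not say whether these are the samples left out. If they are, the spread between replicates given here does not include them. All cells thus carried a vector, the line was a single one, and no untransduced sample was analysed here. By the labels the cells were followed in vitro. The design text of the series has them recovered from mouse bone marrow instead, and the labels were used here. Nothing in the labels says that replicates came from separate cultures, so the p-values measure only the spread between these samples.

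In the core, the alpha subunits form the outer rings that gate the channel and the beta subunits the inner rings that hold the protease sites. The ATPases of the cap unfold substrates and thread them into the core, and the non-ATPase subunits bind and remove ubiquitin. The subunits assemble in fixed proportions, and cells whose proteasome is inhibited raise many of the genes together through the transcription factor NRF1 (NFE2L1). Leukaemic B-lineage cells are known for their sensitivity to proteasome inhibitors, and XIAP, an inhibitor of apoptosis, is itself a ubiquitin ligase.

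Library depth ranged from 312852 to 1153668 UMIs. XIAP had only 2 to 14 UMIs in a library, and at days 10 and 13 that was 10.2 ± 4.61 CPM (UMIs scaled to a common library total; SD, n = 4) in the SFFV/sh-CTRL samples and 8.84 ± 2.93 CPM in the 6 samples of SFFV/sh-XIAP. The fitted log2 difference of XIAP at days 10 and 13 was −0.26 with strong KD (limma-voom adjusted p = 0.975). With moderate KD it was −0.17 (limma-voom adjusted p = 0.995). At day 4 it was of the other sign, 0.21 with strong and 0.15 with moderate KD. The counts thus show no clear fall of XIAP RNA in the KD samples. At days 10 and 13 the 6 SFFV/sh-XIAP libraries still held 39 XIAP UMIs in all. The paper measured its KD levels as XIAP protein, which these counts do not measure. All 12 markers of B-cell precursors on the list used had UMIs, with a summed level of 5538 to 6080 CPM, whereas markers of T cells (2 of 5 in the table), myeloid cells (6 of 6) and erythroid cells (3 of 7) summed to at most 6.6, 26.4 and 5.3 CPM.

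Some of the sequences matter before any level is read, because UMIs were also counted on processed copies of subunit genes. Whether these UMIs came from the copies or from the genes was not tested. PSMA6, which encodes an alpha subunit (chr14:35278633-35317493 on GRCh38, plus strand), had 450 UMIs over the 31 libraries, whereas its 4 annotated pseudogenes had 2752, or 85.9% of the UMIs of the family. PSMC1, which encodes an ATPase (chr14:90256495-90275429, plus strand), had 990 UMIs and its 12 pseudogenes had 1378, or 58.2%. The last stretches of coding sequence, the part nearest to the 3′ end that was read, differed little between gene and copy. They are shown from the GENCODE 29 transcripts, with differing bases in capitals and positions counted from 1 at the 5′ end of each 30-base window. PSMA6P1, which held 1727 UMIs, differed from coding bases 712 to 741 of PSMA6 by C3T.
PSMA6: caCcttgttgctctagcagagagagactaa
PSMA6P1: caTcttgttgctctagcagagagagactaa
PSMC1P9 on chromosome 12 (379 UMIs) differed from coding bases 1291 to 1320 of PSMC1 by G8A.
PSMC1: caggaagGcacccctgaggggctgtatctc
PSMC1P9: caggaagAcacccctgaggggctgtatctc
PSMC1P1 on chromosome 3 (285 UMIs) was identical to PSMC1 over that window. Over all aligned coding bases, identity to the parent was 97.4% for PSMA6P1, 93.3% for PSMA6P2, 97.3% for PSMC1P9 and 99.9% for PSMC1P1. The levels of PSMA6 and PSMC1 were therefore uncertain, as reads could be assigned to gene or copy. PSMA2, another alpha subunit, shared 21% of its family's UMIs with 3 pseudogenes, PSMD4 7.68% with 1 and PSMC2 5.63% with 2. The other 26 members had at most 3.53% on pseudogenes, and 18 had none counted.

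Genes on the opposite strand overlap some members, and the strand setting of the counting is not given in the sources used here. PSMA3 (2600 UMIs) overlaps PSMA3-AS1 (2333 UMIs), PSMC5 (4810) overlaps FTSJ3 (2768), PSMC2 (1945) overlaps DNAJC2 (1869), PSMA2 (1171) overlaps MRPL32 (1912), and PSMD7 (4357) overlaps an unnamed transcript with 2459 UMIs. For these members, reads of the partner may be part of the count.

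Proteasome subunit genes were expressed in all 31 libraries and took a nearly constant part of the RNA. Together they held between 0.426% and 0.495% of the UMIs of a library, and their summed level was between 4253 and 4907 CPM after TMM scaling. PSMB1, a beta subunit without protease activity, had the highest count at 606 ± 72.2 CPM (SD, n = 31). It was followed by the catalytic subunit PSMB6 at 320 ± 25.7, by the alpha subunits PSMA4 at 293 ± 21.01 and PSMA7 at 271 ± 34.4, and by the ATPase PSMC5 at 233 ± 26.2 CPM. The ranges of mean ± SD of neighbours in this order overlapped from PSMB6 to PSMC5, whereas PSMB1 stood apart. The lowest levels were those of PSMA6 at 22.1 ± 6.1, PSMC1 at 48.5 ± 7.74 and PSMA2 at 56.5 ± 9.2 CPM, the 3 members with the largest share of family UMIs on pseudogenes. With the pseudogene counts added, the PSMA6 family had 155 ± 21.04 CPM and the PSMC1 family 115 ± 20.9 CPM. These levels count molecules by their 3′ ends and so were not divided by transcript length.

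**Figure D1:**
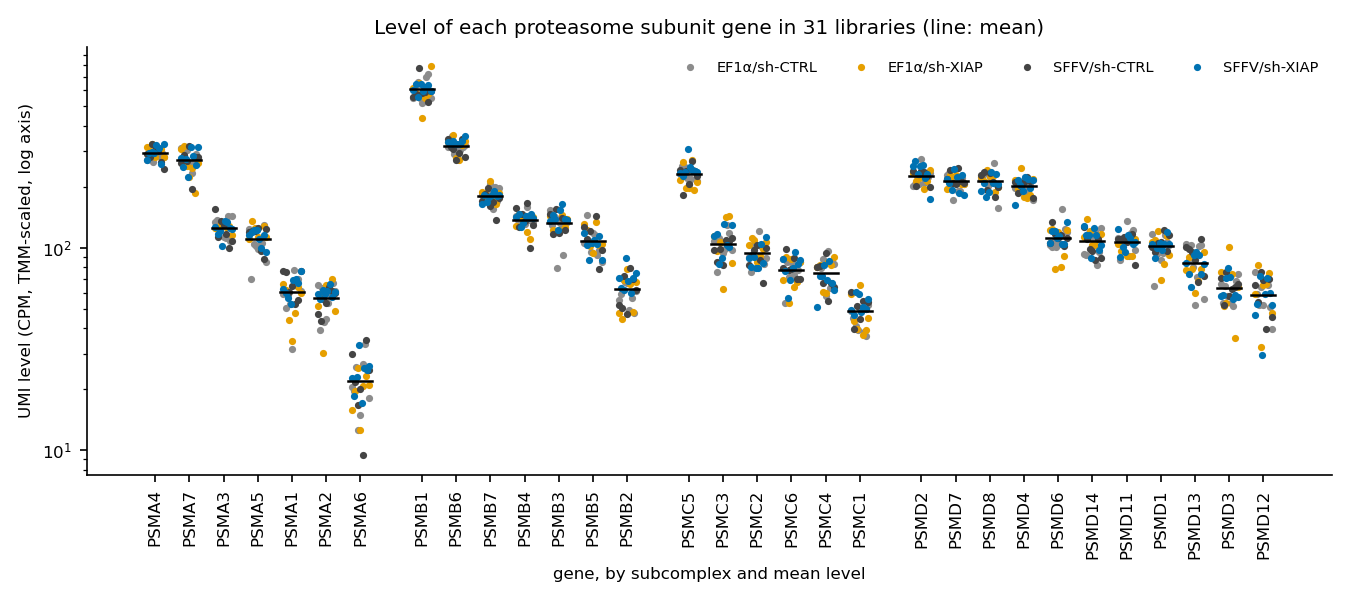
Level of each of the 31 subunit genes in CPM (log axis), 1 point per library and coloured by construct, with the mean over the 31 libraries as a line. Levels run from PSMA6 (mean 22.1) to PSMB1 (mean 606), and the points of the 4 constructs overlap for every gene.

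The spread of most members between libraries was about that of counting. The coefficient of variation over the 31 libraries had a median of 13.2%, where counting error alone gives a median of 12.6%. Against the expectation of pure counting within each construct and day (19 degrees of freedom), the chi-square per degree of freedom was 1.10 in the median over members, against 0.999 in the median over all genes tested. It was below 1 for 10 members and above 1.5 for 8. PSMB1 stood highest with 6.49, followed by PSMA7 with 2.48, PSMC3 with 2.28 and PSMD12 with 2.06.

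PSMB1 was thus the member farthest above counting by this measure. The measure grows with the count at a given relative spread, and PSMB1 had the most UMIs, 12612. Its coefficient of variation over the 31 libraries was 11.9% against 5.35% from counting. That of PSMD12 was 22.5% against 17.2% and that of PSMC3 17.9% against 12.85%, so the measure does not rank members by relative spread. With EF1α/sh-XIAP PSMB1 was at 650 and 436 CPM at day 10 and at 550, 574 and 787 CPM at day 13, the lowest and the highest value of all 31 libraries in a single construct. With SFFV/sh-XIAP the 6 values of these days lay between 559 and 646 CPM. With EF1α/sh-CTRL they ran from 519 to 722 CPM (median 585), and with SFFV/sh-CTRL they were 581 and 589 at day 10 and 525 and 598 at day 13. The ranges of all constructs overlapped, those of SFFV/sh-CTRL and SFFV/sh-XIAP only in part, from 559 to 598 CPM. The widest spread lay among replicates of 1 construct.

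**Figure D2:**
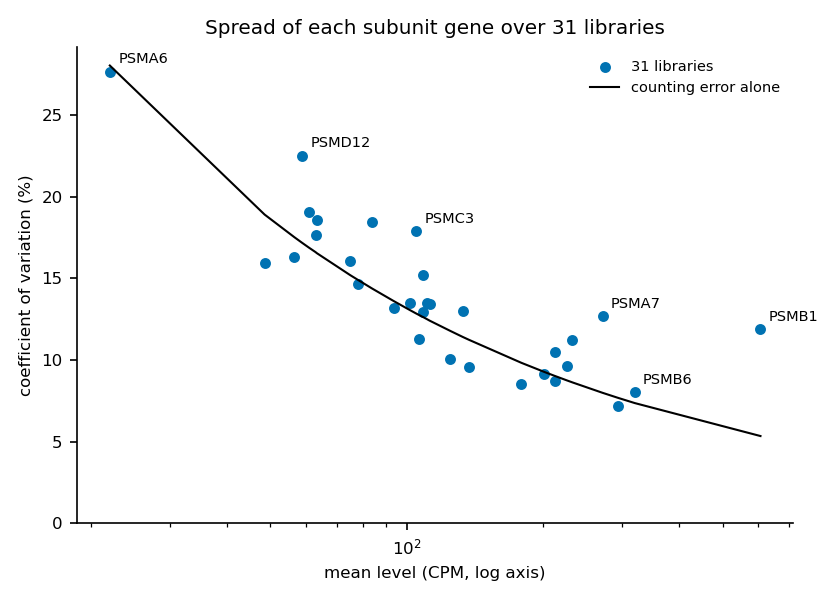
Coefficient of variation over the 31 libraries (percent) of each subunit gene against its mean level (CPM, log axis); the line is the value that counting error alone gives. Most genes lie near the line, and PSMB1 (11.9% against 5.35% from counting) and PSMA7 (12.7% against 7.99%) lie farthest above it among the abundant genes.

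Pairwise correlations of the subunit genes over the libraries were near 0 in the median. Pearson's r of log2 CPM over the 31 libraries had a median of 0.04 over the 465 pairs of members, of 0.048 over the 112 pairs within a subcomplex and of 0.036 over the 353 pairs between subcomplexes. Single pairs ranged from −0.556 to 0.563. The spread of most members was about that of counting, which keeps r near 0 even between genes that vary together. These values therefore cannot tell whether the subunit genes do so. The libraries share construct, day and depth.

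The mean of log2 CPM over the 31 members served as a module level. It lay between 6.82 and 7.01 in the 31 libraries, with an SD of 0.047 between replicates of a construct and day and an SD of 0.041 between the means of the 12 combinations of construct and day. At days 10 and 13 it was 6.90 ± 0.06 with EF1α/sh-CTRL (SD, n = 6), 6.88 ± 0.04 with EF1α/sh-XIAP (n = 5), 6.89 ± 0.02 with SFFV/sh-CTRL (n = 4) and 6.96 ± 0.04 with SFFV/sh-XIAP (n = 6). The 6 SFFV/sh-XIAP libraries ran from 6.903 to 7.005 and the 4 SFFV/sh-CTRL libraries from 6.88 to 6.92, so the ranges overlapped. At day 4 the order was different, with 6.97 ± 0.06 with SFFV/sh-CTRL (n = 3) and 6.92 ± 0.01 with SFFV/sh-XIAP (n = 2).

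The module level moved with library depth. In the 7 libraries with over 900000 UMIs the members held 0.464% to 0.495% of the UMIs (median 0.477%), in the 9 libraries with under 500000 UMIs 0.426% to 0.463% (median 0.448%). All pseudogenes of the table moved the other way, with 17.1% to 17.98% of the UMIs in the deep and 18.3% to 20.8% in the shallow libraries. At days 10 and 13, 2 of the 6 SFFV/sh-XIAP libraries had over 900000 and 1 had under 500000 UMIs, whereas 3 of the 4 SFFV/sh-CTRL libraries had under 500000 and none over 900000. The part of depth in the module level was not tested; a fit with depth as a covariate is given with the strong KD.

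**Figure D3:**
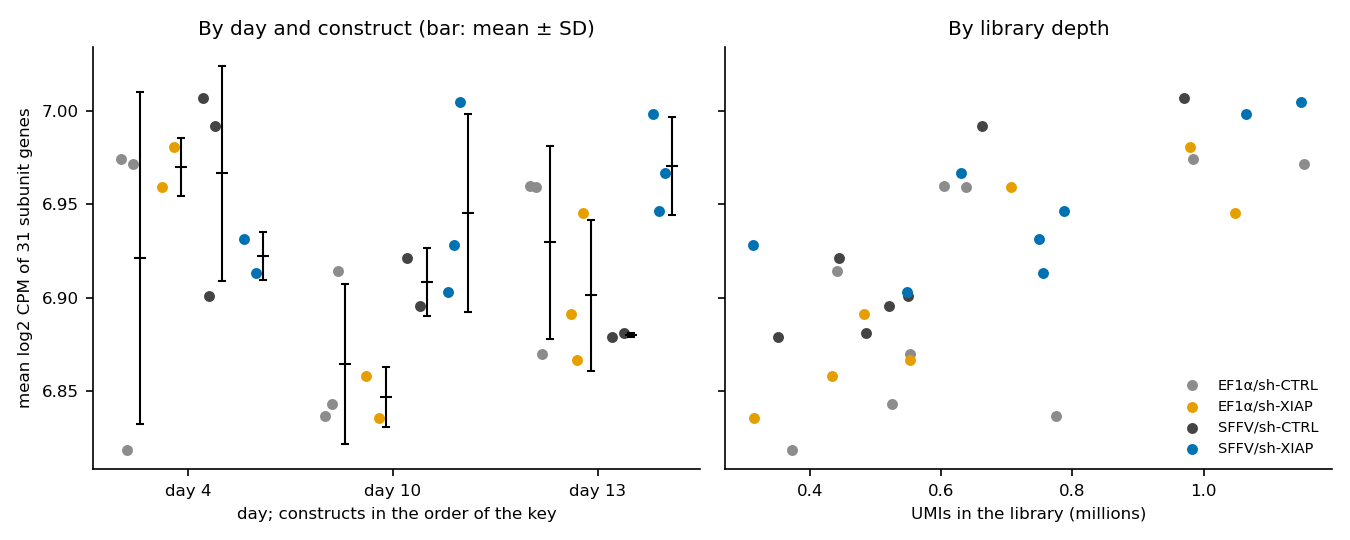
Mean log2 CPM of the 31 subunit genes in each library, on the left by day and construct (points are libraries, bars mean ± SD) and on the right against the number of UMIs in the library. All values lie between 6.82 and 7.01, and the 7 libraries with over 900000 UMIs lie between 6.95 and 7.01.

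The first comparison asked whether strong XIAP KD changed the proteasome genes at days 10 and 13. No member passed the adjusted p of 0.25 that the study used (limma-voom), against 0.0792% of the 17683 genes tested. Of the 31 members, 26 had a higher fitted level with SFFV/sh-XIAP and 5 a lower one, with a median log2 difference of 0.04, whereas the median over all genes was −0.02 and 47.4% of all genes were higher. The differences of single members ran from −0.11 to 0.23, and the samples of both groups overlapped for all 31, where 1.21% of all genes did not overlap. Core genes had a median of 0.09, with 11 of 14 higher, and cap genes a median of 0.03, with 15 of 17 higher, the 6 ATPase genes among them. With log2 of the library's UMI total as a covariate the median was −0.01 and 15 of 31 members were higher. Depth differed between the SFFV/sh-XIAP and SFFV/sh-CTRL libraries, so this fit cannot tell depth and KD apart. Within single days the median was 0.07 at day 10 and 0.13 at day 13, and with single libraries left out it ran from 0.0465 to 0.102, the highest value without SFFV/sh-CTRL day 10 replicate 2. The size of the median also depended on the library that TMM scaling takes as its reference. With each of the 21 libraries as reference in turn it ran from 0.0385 to 0.0731, with 26 to 28 members higher and 0 called, while its distance from the median over all genes stayed between 0.0583 and 0.0606. For 30 of 31 members the 95% interval of the fold change lay within 1.5-fold in either direction. The exception was PSMA6, whose interval ran from 0.735 to 1.63. In bulk RNA, a changed share of cells and a changed amount of RNA per cell cannot be told apart.

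PSMB6, the catalytic beta subunit with caspase-like activity, was the only member with an unadjusted p under 0.05, where 5.58% of all genes had one. Its levels with SFFV/sh-XIAP were 339, 327 and 328 CPM at day 10 and 327, 338 and 359 CPM at day 13. With SFFV/sh-CTRL they were 273 and 295 at day 10 and 344 and 281 at day 13. Of the 4 control libraries 3 lay below all 6 KD libraries and 1 lay among them. The log2 difference was 0.16 ± 0.08 (SE), a fold of 1.12 with an interval from 1.01 to 1.246 (limma-voom adjusted p = 0.855).

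The other catalytic subunits did not share a direction. PSMB7, which cuts after basic residues, was at 169 to 192 CPM (median 181) with SFFV/sh-XIAP and at 161, 168, 137 and 176 CPM with SFFV/sh-CTRL. Its log2 difference was 0.15 ± 0.10 (limma-voom adjusted p = 0.929), and the ranges overlapped. PSMB5, which cuts after hydrophobic residues and is the target of bortezomib, was at 86.8 to 114 CPM (median 105) with SFFV/sh-XIAP and at 107, 144, 78.8 and 97.2 CPM with SFFV/sh-CTRL. The controls spanned the whole range of the KD samples. Its log2 difference was −0.09 ± 0.14 (adjusted p = 0.977), and it was 0.11 without the SFFV/sh-CTRL day 10 replicate 2, the library with 144 CPM, and 0.20 at day 13 alone.

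In the cap, PSMD14, the deubiquitinase that removes ubiquitin chains from substrates, had the largest difference of all members. It was at 89.1 to 126 CPM (median 109) with SFFV/sh-XIAP and at 96.0, 86.8, 111 and 88.9 CPM with SFFV/sh-CTRL. Of the 6 KD libraries 3 lay within the range of the controls and 3 above it. The log2 difference was 0.23 ± 0.13 (limma-voom adjusted p = 0.92). PSMD4, a ubiquitin receptor, was at 191 to 223 CPM (median 210) with SFFV/sh-XIAP and at 212, 225, 213 and 176 CPM with SFFV/sh-CTRL, overlapping, and differed by 0.03 ± 0.09 (limma-voom adjusted p = 0.988). The lower members with the smallest p were PSMD7, a scaffold of the lid next to PSMD14, with −0.10 ± 0.09 (adjusted p = 0.941), and PSMD1, a large scaffold of the base, with −0.11 ± 0.13 (adjusted p = 0.955). Two-sided exact permutation tests of log2 CPM over the same 10 libraries, not adjusted and not run over all genes, gave p = 0.0333 for PSMB6, 0.00952 for PSMB7, 0.757 for PSMB5, 0.157 for PSMD14, 0.824 for PSMD4, 0.476 for PSMD7 and 0.414 for PSMD1, where 0.00476 is the smallest p they allow.

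**Figure D4:**
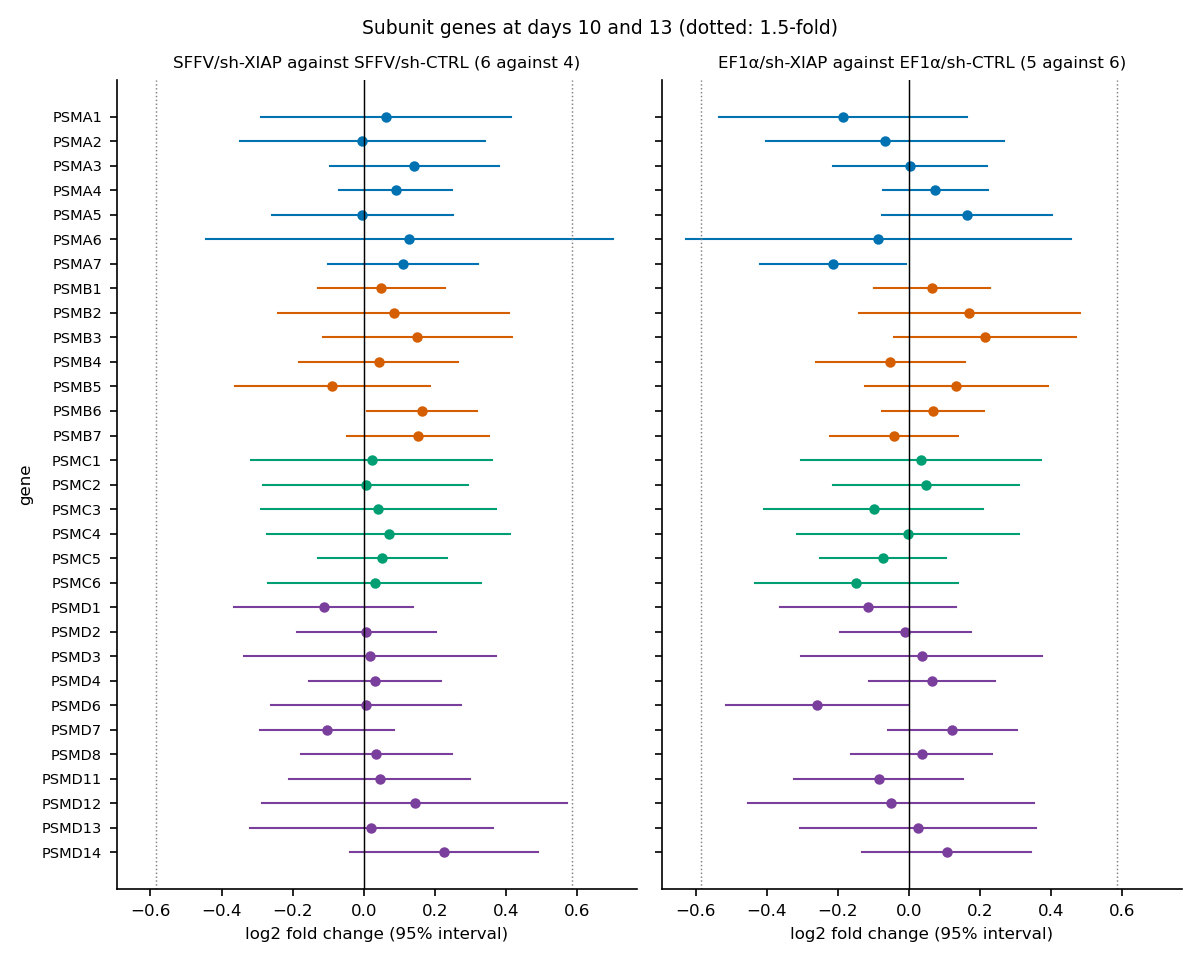
Fitted log2 fold change with its 95% interval for each subunit gene at days 10 and 13, on the left for SFFV/sh-XIAP against SFFV/sh-CTRL (n = 6 and 4) and on the right for EF1α/sh-XIAP against EF1α/sh-CTRL (n = 5 and 6). Colours mark the PSMA, PSMB, PSMC and PSMD genes. On the left 26 and on the right 16 of 31 points lie above 0, and in each panel PSMA6 alone has an interval that reaches past 1.5-fold (dotted).

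Moderate XIAP KD gave no called member either, against 0.017% of all genes tested. Here 16 members were higher and 15 lower with EF1α/sh-XIAP, with a median log2 difference of 0.00 (0.01 over all genes). For 30 of 31 members the interval again lay within 1.5-fold, PSMA6 being the exception. An unadjusted p under 0.05 was reached by 2 members, both lower, against 4.62% of all genes, and for 0 members (0.407% of all genes) the samples of both groups did not overlap.

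PSMA7, an alpha subunit, was one of these. It was at 186 to 263 CPM (median 248) with EF1α/sh-XIAP and at 234 to 305 CPM (median 272) with EF1α/sh-CTRL, and the ranges overlapped from 234 to 263. The log2 difference was −0.21 ± 0.10 (limma-voom adjusted p = 0.992). PSMD6, a subunit of the lid, was the other, at 79.0 to 123 CPM (median 91.2) with the KD and at 101 to 155 CPM (median 118) in the control, with a log2 difference of −0.26 ± 0.13 (adjusted p = 0.992). Of the 5 KD libraries 3 lay below all controls of PSMD6 and 2 lay among them.

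The higher members with the smallest p were PSMB3, a non-catalytic beta subunit, with a log2 difference of 0.21 ± 0.13 (limma-voom adjusted p = 0.992), and the alpha subunit PSMA5 with 0.16 ± 0.12. The catalytic subunits were at 0.13 ± 0.13 for PSMB5, 0.07 ± 0.07 for PSMB6 and −0.04 ± 0.09 for PSMB7. PSMD4 differed by 0.06 ± 0.09 and PSMD14 by 0.11 ± 0.12. None of these differences passed the test.

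The difference between the strong and the moderate KD effect was tested directly and passed for no member (0.00566% of all genes). It was positive for 20 of 31 members, with a median of 0.06 against −0.03 over all genes. With single libraries left out the median ran from 0.0488 to 0.119, with 0.115 and 0.119 without EF1α/sh-CTRL day 10 replicates 1 and 2 and 0.111 without EF1α/sh-XIAP day 13 replicate 3. The intervals were wider here and lay within 1.5-fold for 23 members and within 2-fold for 30. PSMA7 was the only member with an unadjusted p under 0.05 (5.06% of all genes), with 0.32 ± 0.15 (limma-voom adjusted p = 0.964). PSMB7 followed among the positive differences with 0.20 ± 0.13, and the negative ones were led by PSMD7 with −0.23 ± 0.13 and PSMB5 with −0.22 ± 0.19.

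The promoter itself was compared in the control cells, SFFV/sh-CTRL against EF1α/sh-CTRL at days 10 and 13. These are the control samples of the KD comparisons. Again 0 members were called (0.00566% of all genes), 13 were higher and 18 lower, and the median was −0.01. No member had an unadjusted p under 0.05, against 5.16% of all genes, or samples that did not overlap, against 0.973%. The smallest p values were those of PSMB7 at −0.19 ± 0.10 (limma-voom adjusted p = 0.922) and PSMD7 at 0.17 ± 0.10 (adjusted p = 0.922), with PSMB3 at 0.22 ± 0.14 and PSMD14 at −0.18 ± 0.13 next in each direction.

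At day 4 the design was smaller, with 2 KD and 3 control samples per promoter. No member was called for strong KD (0.0109% of 18336 genes), for moderate KD (0.0491%) or between the promoters (0.0164%). With strong KD 23 of 31 members were lower and the median was −0.07, against −0.01 over all genes. With moderate KD 18 were higher and the median was 0.01, and between the promoters 20 were higher and the median was 0.05. An unadjusted p under 0.05 was reached by 0 members with strong KD (4.72% of all genes), by 2 with moderate KD (4.5%) and by 0 between the promoters (4.33%). The 95% interval lay within 2-fold for all 31 members in each of the 3 comparisons. Within 1.5-fold it lay for only 22 members with strong KD and 26 with moderate KD.

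PSMD13, a lid subunit, was lower in both KD comparisons at day 4. It was at 84.2 and 74.1 CPM with SFFV/sh-XIAP and at 101, 99.2 and 95.5 CPM with SFFV/sh-CTRL, without overlap, with a log2 difference of −0.33 ± 0.17 (limma-voom adjusted p = 0.978). After all libraries were thinned to the smallest total this difference was 0.20, of the opposite sign. With EF1α/sh-XIAP it was at 77.6 and 89.8 CPM and with EF1α/sh-CTRL at 104, 86.8 and 103 CPM, with overlap and a log2 difference of −0.25 ± 0.16 (adjusted p = 0.976). Samples of SFFV/sh-XIAP and SFFV/sh-CTRL did not overlap for 4 members, where 19.1% of all genes did not overlap, with 2 higher (9.67% of all genes) and 2 lower (9.39%). For moderate KD this held for 7 members against 19.2% of all genes, with 5 higher (11.5%) and 2 lower (7.73%). Between the promoters it held for 1 member against 9.28% of all genes, and that member was higher (4.76% higher and 4.52% lower among all genes). A two-sided exact permutation test of 2 against 3 samples cannot go below p = 0.1.

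The other members with the smallest p at day 4 were the lid scaffold PSMD12 at −0.40 ± 0.22, the ATPase PSMC3 at 0.28 ± 0.16 and the base scaffold PSMD2 at 0.19 ± 0.11 with strong KD (limma-voom adjusted p = 0.978 for each). With moderate KD they were the beta subunit PSMB2 at −0.44 ± 0.21, PSMD14 at 0.31 ± 0.15 and PSMA4 at 0.17 ± 0.09 (limma-voom adjusted p = 0.976 for each). PSMB2 was at 47.4 and 44.4 CPM with EF1α/sh-XIAP and at 55.1, 58.8 and 70.2 CPM with EF1α/sh-CTRL, without overlap. Between the promoters they were PSMA1 at 0.33 ± 0.17, PSMA4 at 0.12 ± 0.08, PSMA7 at −0.13 ± 0.09 and PSMA2 at −0.28 ± 0.19 (limma-voom adjusted p = 0.996 for each).

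The change of the strong KD effect between day 4 and the later days was tested as an interaction over the 31 samples and passed for no member (0.0226% of 17676 genes). It was positive for 25 of 31 members, with a median of 0.14 against 0.00 over all genes. No member had an unadjusted p under 0.05, against 5.23% of all genes. PSMA3, an alpha subunit, had the smallest p with 0.34 ± 0.18 (limma-voom adjusted p = 0.951), and PSMD12 the largest value with 0.54 ± 0.33. PSMD2 was at −0.17 ± 0.14 and PSMC3 at −0.22 ± 0.25. The median was 0.06 with log2 total UMIs as a covariate.

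Time in culture was compared over all constructs, with construct as a term and 10, 10 and 11 samples at days 4, 10 and 13. No member was called between day 10 and day 4 (0.26% of 17676 genes), day 13 and day 4 (0.509%) or day 13 and day 10 (0.0226%). From day 4 to day 10 a lower fitted level was seen for 22 of 31 members, with a median of −0.05, and from day 4 to day 13 for 19, with a median of −0.04. The all-gene median was 0.00 in both. An unadjusted p under 0.05 was reached by 2 members at day 10 against day 4 (6.31% of all genes), by 2 at day 13 against day 4 (6.46%) and by 3 at day 13 against day 10 (5.98%). The intervals lay within 1.5-fold for 30 members at day 10 and for all 31 at day 13. Without the filter on low counts, 5 members were called between day 10 and day 4, 1 higher and 4 lower. In that fit 8868 genes were called, of at most 30667 in the table, and the median over all genes was 0.19.

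PSMB5 had the smallest p of the members between day 13 and day 4. Its level ran from 103 to 146 CPM (median 120) at day 4, from 86.9 to 144 CPM (median 106) at day 10 and from 78.8 to 135 CPM (median 97.2) at day 13. The median was lower at each later day while the ranges overlapped. The log2 difference of day 13 was −0.21 ± 0.08, a fold of 0.864 with an interval from 0.775 to 0.962 (limma-voom adjusted p = 0.556). PSMD14 was at −0.16 ± 0.08 in the same comparison (adjusted p = 0.753). PSMA6 and PSMA2 were the higher members with the smallest p, at 0.22 ± 0.16 and 0.12 ± 0.10.

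Between day 10 and day 4 PSMD13 was at −0.27 ± 0.11 (limma-voom adjusted p = 0.63) and PSMB6 at −0.12 ± 0.05 (adjusted p = 0.662). The higher members with the smallest p were PSMB2 at 0.17 ± 0.11 and PSMD4 at 0.10 ± 0.06.

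PSMA6 had the smallest p of all members in any comparison, between day 13 and day 10. It ran from 9.44 to 32.98 CPM (median 18.7) at day 10 and from 18.1 to 35.02 CPM (median 24.8) at day 13, on 102 and 178 UMIs in all. The ranges overlapped for most of their length. The log2 difference was 0.49 ± 0.16 (limma-voom adjusted p = 0.708). It was 0.10 when the counts of the pseudogenes were added. PSMA1, another alpha subunit, was at 0.28 ± 0.10 (adjusted p = 0.753) and PSMB1 at 0.15 ± 0.06 (adjusted p = 0.753). The lower members with the smallest p were PSMD2 at −0.11 ± 0.06 and PSMA4 at −0.08 ± 0.05.

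By the other tools, edgeR's quasi-likelihood test, DESeq2 and limma-trend, 0 members were called in each of the 11 comparisons as well. At an unadjusted p under 0.05 these tools had between 0 and 5 members in a comparison, and limma-voom between 0 and 3. With limma-voom 4.33% to 6.46% of all genes were under that p. For the other tools this share was not taken, and the share of all genes they called is not given here. Their counts, the 0 calls among them, therefore have no background to be read against.

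Genes that work with the proteasome were described from lists written by hand. None of their members was called in the strong or the moderate KD comparison at days 10 and 13. The immunoproteasome subunits PSMB8, PSMB9 and PSMB10, which replace the catalytic subunits in immune cells, were lower in 3 of 3 with strong KD (median −0.22) and higher in 3 of 3 with moderate KD (median 0.06). Among the control samples of these days, 3 of 3 were also higher with SFFV/sh-CTRL than with EF1α/sh-CTRL (median 0.30). With strong and moderate KD PSMB8 was at −0.06 ± 0.07 and 0.004 ± 0.07, and PSMB10 at −0.31 ± 0.55 and 0.06 ± 0.53. PSMB9 had the smallest p of the 3 with strong KD, at −0.22 ± 0.19 (limma-voom adjusted p = 0.941), and was at 0.39 ± 0.18 with moderate KD (adjusted p = 0.992).

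The smallest p in all these lists with strong KD was that of VCP, the unfoldase that extracts ubiquitinated proteins for the proteasome. Its log2 difference was 0.30 ± 0.10 (limma-voom adjusted p = 0.584) with strong KD and −0.06 ± 0.09 with moderate KD. Of the 5 genes of the VCP complex 3 were higher and 2 lower with strong KD, and 1 was higher and 4 lower with moderate KD.

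Of the 5 activators and inhibitors 4 were higher with strong KD, PSME2 with the smallest p at 0.13 ± 0.07 (limma-voom adjusted p = 0.902). Of the 5 chaperones of core assembly 2 were higher, PSMG1 with the smallest p at 0.17 ± 0.11, and of the 4 of cap assembly 2 were higher, PSMD9 with the smallest p at 0.53 ± 0.31 (limma-voom adjusted p = 0.92). Of the 4 receptors, deubiquitinases and SEM1 1 was higher, USP14 with the smallest p at −0.11 ± 0.11, and of the 6 shuttle receptors 4 were higher, UBQLN4 with the smallest p at 0.24 ± 0.16. Of the 3 ubiquitin-activating enzymes 2 were higher, UBA3 with the smallest p at −0.21 ± 0.13. Of the 6 genes of NRF1 regulation 1 was higher, NFE2L1 itself at 0.25 ± 0.16 (limma-voom adjusted p = 0.929), and 5 were lower. With moderate KD these lists had 3 of 5, 3 of 5, 4 of 4, 4 of 4, 3 of 6, 0 of 3 and 1 of 6 higher, in the same order.

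The promoters of 26 members could be matched in RefSeq (GRCh38.p14, 250 bases before to 50 after the start), and were searched on both strands for 3 sets of letters. PSMB1, PSMA7, PSMD4, PSMB6 and PSMB7 had no entry in the promoter set used, so the shares of members below do not cover them. TGACNNNGC, the core of the antioxidant response element that NRF1 binds, was found in 5 (19.2%), PSMB3, PSMC4, PSMD1, PSMD3 and PSMD12, against 13.6% of the 27305 promoters. CCAAT, the box of NF-Y, was found in 14 (53.8%) against 35.7%, and CCGGAAG, the core of sites of ETS factors, in 9 (34.6%) against 10.7%. The matches that lie upstream of the start are shown with 30 bases each and the match in capitals, since NRF1 is the factor through which these genes are known to be raised together.
PSMB3: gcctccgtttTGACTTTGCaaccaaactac
PSMD3: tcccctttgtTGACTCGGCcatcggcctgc
PSMD12: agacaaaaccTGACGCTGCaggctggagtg
The windows lie at chr17:38752627-38752656, chr17:39980760-39980789 and chr17:67366723-67366752, the last on the minus strand. PSMB3, PSMD3 and PSMD12 had log2 differences of 0.15, 0.02 and 0.14 with strong KD and of 0.21, 0.04 and −0.05 with moderate KD at days 10 and 13. The value of PSMB3 with moderate KD was the highest of the 31 members. PSMD1, whose match lies after the start, had the lowest value of the 31 with strong KD, −0.11. The ATPase genes, with PSMC4 and its match after the start among them, ran from 0.00 to 0.07 with strong KD. A link between the match and the level was not tested. No match to CCAAT or CCGGAAG overlaps the letters in capitals.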

How the data were processed

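RNA of 31 NALM-6 samples was measured by prime-seq. The authors deposited 1 table of UMI counts per gene, not normalized. The submitters' processing notes name STAR 2.6.0a; no source used here gives the annotation release or the strand setting. Totals ranged from 312852 to 1153668 UMIs per sample, which limits the precision of low genes, and counting intervals cover counting error only.

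Genes above 1 CPM in at least 1 in 3 samples were tested with limma-voom (limma 3.58.1, edgeR 4.0.16, R 4.3.3) after TMM scaling, with Benjamini-Hochberg adjustment over all genes tested and calls at an adjusted p of at most 0.25. Days 10 and 13 were fitted together (21 samples, construct and day), day 4 alone (10 samples) and time over 31 samples. CPM values are TMM-scaled, and log2 CPM used a prior count of 2. The procedure was tested on simulated data.

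The 31 members and all lists were chosen with earlier results of these data known. Named with full values were members called or, failing that, the 2 higher and the 2 lower members of smallest p, the catalytic subunits, PSMD4, PSMD14 and the members with the highest and lowest level; PSMB1, PSMA7, PSMC3 and PSMD12 are also named for their spread, chosen after their values were seen.

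Alternatives tried were limma-trend, DESeq2 1.42.0, the quasi-likelihood test of edgeR, other scalings, filters and thresholds, sample weights, a depth covariate, thinned counts, pseudogene counts added, single days, the replicate number as a block, each sample left out and, chosen after seeing the data, each library as TMM reference and TMM over all genes. Of 26 pairs of samples of 1 group none were identical. The result of 1 further list is not reported here. Genes were annotated with GENCODE 29, and promoters came from RefSeq (GRCh38.p14).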

Additional observations from a re-analysis of the deposited data

Results flagged for a closer look

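In groups of 4 to 6 samples at days 10 and 13, the highest or lowest sample was compared with its nearest neighbour, as the gap divided by the range of the group. Of 148 groups tested 9 had a gap above Dixon's 95% critical value, where chance gives about 1 in 20.

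With EF1α/sh-XIAP, day 13 replicate 1 stood high for the catalytic subunit PSMB5, at 134.5 CPM against 104.9 in the next library (gap over range 0.733), and for the ATPase PSMC5, at 271 against 211.6 CPM (0.762). Day 10 replicate 2 of that construct was high for the ATPase PSMC1, at 65.86 against 44.8 CPM (0.736). With EF1α/sh-CTRL, day 10 replicate 3 was high for PSMB4, a non-catalytic beta subunit, at 158.4 against 140.2 CPM (0.682).

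With SFFV/sh-CTRL, day 10 replicate 1 was low for the ATPase PSMC3, at 82.63 against 108 CPM (0.876), and day 10 replicate 2 was high for the lid scaffold PSMD7, at 249.2 against 213 CPM (0.872). With SFFV/sh-XIAP, day 10 replicate 2 was high for PSMC5, at 306.7 against 251.9 CPM (0.772), and day 13 replicate 2 was high for the base scaffold PSMD1, at 119.1 against 105.5 CPM (0.645). Day 10 replicate 1 had the lowest mean log2 CPM over the PSMB genes, 7.38 against 7.48 (0.65).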

How the results depend on the processing

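The count of members called stayed at 0 under the other alternatives and with each sample left out, except for 5 members between day 10 and day 4 without the filter on low counts, PSMD4 (0.11), PSMD13 (−0.26) and PSMB6 (−0.11) among them. That fit called 8868 genes, of at most 30667 in the table, with a median over all genes of 0.19. For the other alternatives the share of all genes called is not given here. The median log2 difference of the members moved by more than the replicate spread for the interaction with DESeq2 (0.0757) and with a depth covariate (0.064), for moderate KD at day 4 with limma-trend (0.06265) and with the replicate block (0.0871), for strong minus moderate KD without the filter (0.12, where the median of all genes was −0.20), for strong KD at days 10 and 13 with the depth covariate (−0.0096) and at day 13 alone (0.13), for day 10 against day 4 with thinned counts (0.00330) and for the promoters at day 10 alone (0.0725). Leaving out single samples gave medians of 0.0465 to 0.102 for strong KD (0.102 without SFFV/sh-CTRL day 10 replicate 2, and also moved without SFFV/sh-XIAP day 10 replicate 1), of 0.0488 to 0.119 for strong minus moderate KD (0.115 and 0.119 without EF1α/sh-CTRL day 10 replicates 1 and 2, 0.111 without EF1α/sh-XIAP day 13 replicate 3) and of 0.0809 to 0.166 for the interaction (at its lowest without SFFV/sh-XIAP day 10 replicate 3). Signs turned for uncalled members. With strong KD these were PSMD4 with the depth covariate (−0.0666) and at day 10 alone (−0.04028), PSMD1 (0.0323) and PSMB5 (0.20) at day 13 alone, and PSMD13 at day 4 with thinned counts (0.20). With moderate KD they were PSMB7 with thinned counts (0.061) and, at day 10 alone, PSMB7 (0.0133), PSMB5 (−0.15) and PSMD14 (−0.0524). PSMA6 between day 13 and day 4 turned with pseudogene counts added (−0.065). Leaving out samples gave −0.15 to 0.11 for PSMB5 and −0.00817 to 0.102 for PSMD4 with strong KD and −0.0125 to 0.102 for PSMD4 with moderate KD. The cause was not tested. The replicate block changed no call of a member. Samples of the same number showed no common deviation (mean correlation −0.000553 over 149 pairs, 0.000302 over 290 pairs of different numbers). Counting error keeps such correlations near 0, so they cannot tell whether the numbers pair the samples. All 21 medians for strong KD with a sample left out lay above the reported 0.04, and why was not tested. With each of the 21 libraries as reference, an alternative chosen after seeing the data, the median ran from 0.0385 to 0.0731 for strong and from −0.0117 to 0.0123 for moderate KD. TMM over all genes, chosen after seeing the data, moved the module mean by less than the replicate SD. Depth limits PSMA6, with 4 to 30 UMIs in a library.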
